A study of Mus musculus with 12 samples.

Results

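The oligoadenylate synthetase (OAS) family was followed in fibroblasts cultured from mouse embryos, either wild type (WT) or Gdap1-null (KO). The members were taken by name: Oas1a, Oas1b, Oas1c, Oas1g, Oas2, Oas3, Oasl1 and Oasl2, which makes 8 genes beside the 22180 genes tested. Of these, 7 had a probe set of their own. Oas1a was read only through a probe set annotated to both Oas1a and Oas1g, so its signal cannot be given to either gene, and that probe set is described apart. The study had 12 arrays of a 1-colour Affymetrix design in 4 groups of 3: WT before reprogramming (day 0), WT at day 4 of reprogramming, and KO at the same times. Reprogramming used transduction with 4 factors, Oct4, Sox2, Klf4 and Myc (OSKM). The treatment label is the same for every array, names either a mock or an OSKM transduction, and does not say which one the day 0 cells had. A day 4 change therefore holds transduction and time in culture together with reprogramming. The labels do not say whether arrays of a group came from separate cultures or embryos, so p-values measure only the spread between these samples, which may be technical.

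OAS enzymes are cytoplasmic sensors of double-stranded RNA, a common product of viral infection. Once bound to it, the active members join ATP into short oligoadenylates, which act as second messengers of the antiviral response. The genes are classic targets of type I interferon: signals from its receptor reach a complex that holds Stat2 and Irf9 and binds promoters at GAAA repeats. Oas1, Oas2 and Oas3 proteins differ in the number of synthetase units they carry, with Oas3 the largest. The Oasl proteins add ubiquitin-like domains, and mouse Oasl1 is known to hold back translation of Irf7, a transcription factor that drives interferon production.

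All listed members lie on chromosome 5. In the RefSeq gene table, whose build is GRCm38.p6, Oasl2 and Oasl1 stand with 1 gene between them, and 138 genes separate them from a cluster that runs Oas2, Oas3, Oas1e, Oas1c, Oas1b, Oas1f, Oas1h, Oas1g, Oas1a without another gene between. Oas1b is listed there as a transcribed pseudogene. Promoter windows of 300 bases (250 before to 50 after the start) were searched for GAAANNGAAA, a core of the interferon-stimulated response element, on both strands, where it reads TTTCNNTTTC. RefSeq windows were given for 6 of the 8 members, and Oas1b and Oas2 had none. The motif was in 4 of those 6 windows, against 1131 of 32851 windows (3.44%) of the whole table. The stretches below, 80 bases each in the direction of the gene and 5′ to 3′, are shown because they show where the members' promoters share this motif and where it is missing, and capitals mark the motif. They end 1 base before the start, except that of Oas1c, which runs from 146 to 67 bases before it.
Oas1a, chr5:120907526-120907605, minus strand: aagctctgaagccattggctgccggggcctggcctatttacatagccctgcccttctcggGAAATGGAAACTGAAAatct
Oas1g, chr5:120887614-120887693, minus strand: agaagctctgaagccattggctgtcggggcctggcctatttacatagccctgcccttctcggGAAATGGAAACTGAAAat
Oas1c, chr5:120812581-120812660, minus strand: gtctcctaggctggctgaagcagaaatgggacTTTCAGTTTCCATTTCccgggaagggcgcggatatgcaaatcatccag
Oas3, chr5:120777660-120777739, minus strand: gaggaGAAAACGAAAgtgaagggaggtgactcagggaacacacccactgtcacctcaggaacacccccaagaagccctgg
Oasl1, chr5:114923160-114923239, plus strand: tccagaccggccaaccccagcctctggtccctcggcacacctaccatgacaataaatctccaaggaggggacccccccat
Oasl2, chr5:114896854-114896933, plus strand: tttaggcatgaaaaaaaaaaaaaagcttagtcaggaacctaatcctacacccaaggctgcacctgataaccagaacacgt

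Oas1a and Oas1g each held 2 overlapping matches, 20 to 5 and 18 to 3 bases before the start, and their windows were 85.3% identical over 306 aligned columns. Oas1c held 2 overlapping matches on the opposite strand, 114 to 99 bases before the start, and Oas3 held 1 match, 75 to 66 bases before it. These letters were not in the windows of Oasl1 and Oasl2, which says nothing about binding elsewhere. A match is a description of the sequence, not a measured site.

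Each array gave log2 levels, with array medians between 4.68 and 4.72. The 8 fibroblast markers lay above the 25th percentile of genes in every group. By day 4, 4 of them fell and 1 rose in both genotypes. Over all genes, 11.7% fell and 11.1% rose in WT, and 16.9% and 13.8% in KO. In KO against WT, 2 were higher at day 0 (2.48% of all genes), and 2 were higher (8.34%) and 1 lower (12.4%) at day 4. The level of Gdap1 lay between 2.82 and 3.30 on all 12 arrays, at the 14.1 percentile of genes, and WT and KO overlapped, so it gives no check of the genotype labels. WT day 4 array 1 had a mean Pearson correlation across genes of 0.987 with the other WT day 4 arrays. This was the lowest of the 12 arrays, and WT day 4 arrays 2 and 3 each had 0.991 with their group. The summed linear level of 8 macrophage markers also moved with the groups: it was 1258 to 1320 in WT day 0, 1313 to 2510 in WT day 4, 441 to 457 in KO day 0 and 503 to 527 in KO day 4. The sum of 2510 was that of WT day 4 array 1. Of these markers, 6 of 8 were lower in KO than in WT at both days, beside 3.12% of all genes at day 0 and 12.4% at day 4. Of the 8, 1, Ptprc, was under the 25th percentile in KO. The sum of 4 lymphoid and plasmacytoid markers was 76 to 93 over the groups. That of 4 endothelial markers was 87 to 117 at day 0 and 289 to 582 at day 4. Of these 4, Tek rose (3.84 to 4.86 at day 0, 7.74 to 8.98 at day 4), Kdr fell in both genotypes, and Pecam1 and Cdh5 did not pass. The sum of 3 epithelial markers was 72 to 97 at day 0, and at day 4 it was 186 to 252 in WT and 109 to 116 in KO. Of these 3, 2 were lower in KO than in WT at day 4, beside 12.4% of all genes, and Epcam lay between 3.43 and 4.03 on all arrays. The part of other cell types in the results was not tested, and in bulk RNA fewer cells of a type and less RNA per cell cannot be told apart.

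Oasl2, a synthetase with ubiquitin-like domains, had log2 levels of 6.29, 6.57 and 6.49 on the WT day 0 arrays 1 to 3, 10.41, 9.05 and 8.16 in WT day 4, 9.91, 9.96 and 9.93 in KO day 0 and 10.32, 10.93 and 10.33 in KO day 4. All 9 arrays outside WT day 0 were above all WT day 0 arrays. Oas1b, the flavivirus resistance gene of the mouse, had levels of 4.88, 4.53 and 4.70 in WT day 0, 8.23, 6.46 and 5.64 in WT day 4, 8.12, 8.11 and 8.07 in KO day 0 and 8.28, 8.85 and 8.48 in KO day 4. The KO arrays were high at both times, and WT day 4 array 1 lay among them. Oasl1, the inhibitor of Irf7 translation, had levels of 4.71, 4.53 and 4.74 in WT day 0, 6.65, 5.16 and 4.57 in WT day 4, 7.48, 7.58 and 7.75 in KO day 0 and 5.49, 6.50 and 5.86 in KO day 4. It was the member whose KO day 0 arrays were the highest of all 12.

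Oas2, the middle-sized synthetase, had levels of 4.69, 5.09 and 4.65 in WT day 0, 9.07, 6.88 and 6.22 in WT day 4, 6.12, 5.36 and 5.42 in KO day 0 and 9.73, 10.09 and 10.05 in KO day 4. The 4 groups did not overlap, and their order was WT day 0, KO day 0, WT day 4, KO day 4. Oas3, the largest synthetase, had levels of 4.81, 4.98 and 4.96 in WT day 0, 5.66, 4.86 and 4.70 in WT day 4, 5.06, 5.32 and 5.08 in KO day 0 and 6.44, 6.50 and 6.21 in KO day 4. The KO day 4 arrays were above all others, and WT day 4 overlapped both day 0 groups. Oas1g, one of the small synthetases, had levels of 3.03, 3.40 and 3.93 in WT day 0, 6.80, 4.41 and 4.34 in WT day 4, 4.66, 5.33 and 4.73 in KO day 0 and 6.48, 7.33 and 6.72 in KO day 4. WT day 4 array 1 lay among the KO day 4 arrays, and the other two WT day 4 arrays lay below KO day 0.

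The probe set shared by Oas1a and Oas1g had levels of 4.73, 4.74 and 4.90 in WT day 0, 6.38, 5.09 and 5.48 in WT day 4, 5.43, 5.50 and 5.40 in KO day 0 and 6.38, 6.15 and 6.06 in KO day 4. WT day 4 overlapped both KO groups. Oas1c, another Oas1 gene, had levels of 4.08, 3.99 and 4.14 in WT day 0, 4.37, 4.46 and 4.19 in WT day 4, 4.50, 4.32 and 4.05 in KO day 0 and 5.10, 4.61 and 4.65 in KO day 4. Its span over the 12 arrays, 1.11 on the log2 scale, was the smallest of the 8 probe sets, and that of Oas2, 5.44, was the largest. Oas1c was also the only probe set of the 8 for which WT day 4 array 1 was not the highest of its group.

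**Figure D1:**
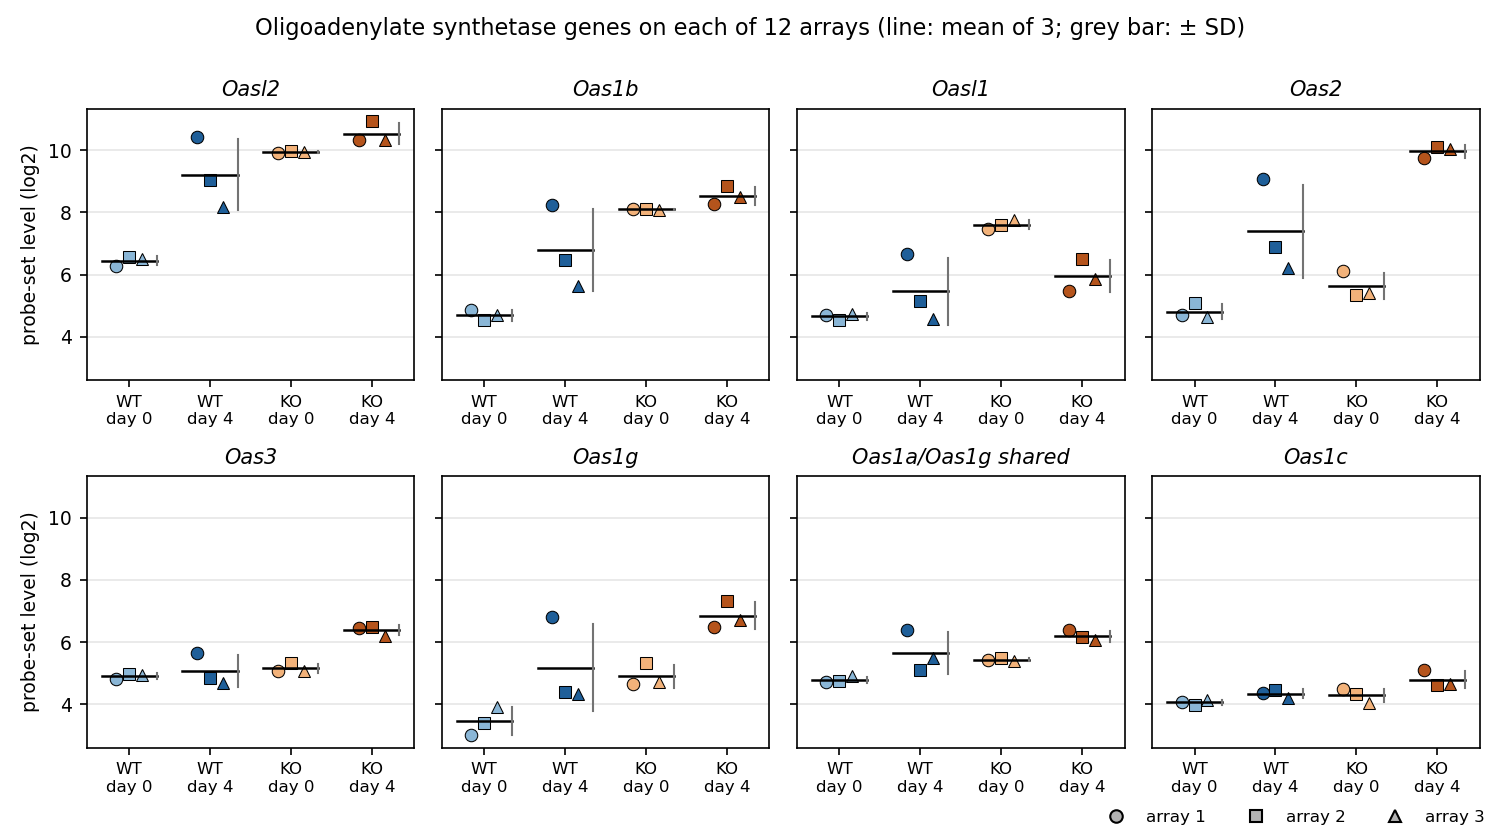
Log2 level (vertical axis) of the 7 members with their own probe set and of the probe set shared by Oas1a and Oas1g on each of the 12 arrays, by group; points are arrays, lines are group means and bars are SD (n = 3). Oasl2, Oas1b and Oasl1 were high in KO at day 0, and every probe set but that of Oasl1 had its highest mean in KO at day 4.

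Group means followed 3 orders. For Oas1b, Oas3 and Oasl2 the order was WT day 0, WT day 4, KO day 0, KO day 4, in which WT day 4 and KO day 0 overlapped, as did WT day 0 and WT day 4 for Oas3. For Oas1c, Oas1g, Oas2 and the shared probe set it was WT day 0, KO day 0, WT day 4, KO day 4. In this order KO day 0 and WT day 4 overlapped for Oas1c, Oas1g and the shared probe set. WT day 0 and KO day 0 also overlapped for Oas1c, and WT day 4 and KO day 4 for Oas1g and the shared probe set. For Oasl1 it was WT day 0, WT day 4, KO day 4, KO day 0, in which WT day 4 overlapped both WT day 0 and KO day 4. All members had their lowest mean in WT day 0.

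Before reprogramming, the levels of 3 members were higher in KO than in WT. The log2 level of Oasl2 was higher in KO by 3.49 ± 0.39 (SE, n = 3 a group; limma, adjusted p = 0.000209), an 11.2-fold difference. Oas1b was higher by 3.40 ± 0.45 (10.5-fold, adjusted p = 0.000597) and Oasl1 by 2.95 ± 0.40 (7.7-fold, adjusted p = 0.000681). These 3 calls held without any single array. The 3 of 7 members that were higher stand beside 2.48% of all genes. By limma, 0 of 7 were lower, also at an unadjusted p under 0.05, beside 3.12% of all genes, and the members' median difference was 1.45, beside 0.00 over all genes.

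Among the other members at day 0, the difference of Oas1g was 1.45 ± 0.52 (adjusted p = 0.156), that of Oas2 0.82 ± 0.52 (adjusted p = 0.491), that of Oas3 0.24 ± 0.19 (adjusted p = 0.615) and that of Oas1c 0.22 ± 0.14 (adjusted p = 0.495). None of these passed, although the KO arrays of Oas1g, Oas2 and Oas3 all lay above the WT arrays. Without WT day 4 array 1, which enters through the shared spread only, Oas1g (adjusted p = 0.00241) and Oas2 (adjusted p = 0.032) passed. In the fit over all 41345 probe sets, the shared probe set differed by 0.65 ± 0.25 (adjusted p = 0.265), and 2.73% of probe sets passed in either direction.

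From day 0 to day 4, the levels of 4 members rose in KO cells and that of 1 fell. Oas2 rose by 4.32 ± 0.52 on the log2 scale (SE, n = 3 a group; adjusted p = 4.65e-05), Oas1g by 1.94 ± 0.52 (3.84-fold, adjusted p = 0.0121), Oas3 by 1.23 ± 0.19 (2.34-fold, adjusted p = 0.000357) and Oas1c by 0.50 ± 0.14 (adjusted p = 0.0161). The log2 level of Oasl1 fell by 1.65 ± 0.40 (adjusted p = 0.00625), so the inhibitor of Irf7 translation and the synthetases Oas2 and Oas3 changed in opposite directions. The 4 of 7 members that rose stand beside 13.8% of all genes, and the 1 that fell beside 16.9%. The median change was 0.59, beside -0.01 over all genes.

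Oas1b and Oasl2, already high in KO at day 0, changed by 0.44 ± 0.45 (adjusted p = 0.516, 95% interval of the change -0.54 to 1.41) and 0.59 ± 0.39 (adjusted p = 0.298, 95% interval -0.27 to 1.45). Neither passed, with the day 4 arrays of both above the day 0 arrays, and in a fit to the KO arrays alone both passed (adjusted p = 0.0376 and 0.0209). The shared probe set rose by 0.75 ± 0.25 (adjusted p = 0.0491), where 21.8% of probe sets passed. Oas1c no longer passed when KO day 0 array 3 (0.38, adjusted p = 0.0782) or KO day 4 array 1 (0.34, adjusted p = 0.069) was left out, and Oasl2 passed when WT day 4 array 1 was (0.59, adjusted p = 0.0402).

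In WT cells the levels of 4 members rose from day 0 to day 4. Oasl2 rose by 2.76 ± 0.39 on the log2 scale (SE, n = 3 a group; 6.76-fold, adjusted p = 0.000231), Oas2 by 2.58 ± 0.52 (5.99-fold, adjusted p = 0.00271), Oas1b by 2.07 ± 0.45 (4.21-fold, adjusted p = 0.00434) and Oas1g by 1.73 ± 0.52 (3.32-fold, adjusted p = 0.0287). The 4 of 7 members that rose stand beside 11.1% of all genes. By limma, 0 of 7 fell, also at an unadjusted p under 0.05, beside 11.7% of all genes. The median change was 1.73, beside -0.01 over all genes.

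Oas3 changed by 0.16 ± 0.19 (adjusted p = 0.65, 95% interval -0.26 to 0.58), Oas1c by 0.27 ± 0.14 (adjusted p = 0.209) and Oasl1 by 0.80 ± 0.40 (adjusted p = 0.186, 95% interval -0.06 to 1.66). None of these passed. The shared probe set rose by 0.87 ± 0.25 (adjusted p = 0.0367), where 14.0% of probe sets passed. Without WT day 4 array 1 the changes of Oas1b, Oas1g, Oas2 and Oasl2 were 1.35 (adjusted p = 0.000494), 0.92 (adjusted p = 0.0319), 1.74 (adjusted p = 0.000208) and 2.15 (adjusted p = 2.84e-05), and that of Oas3 turned to -0.14 (adjusted p = 0.475). Without it the change of Oasl1 was 0.21 (adjusted p = 0.623), and without WT day 4 array 3 it was 1.24 and passed (adjusted p = 0.0298). Oas1g no longer passed when WT day 0 array 1 (1.52, adjusted p = 0.107) or array 2 (1.70, adjusted p = 0.0817) was left out, with a trended robust prior (adjusted p = 0.0882), in a fit to the WT arrays alone (adjusted p = 0.086) or over all probe sets (adjusted p = 0.0594).

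At day 4, 6 of 7 members were higher in KO than in WT. Oas2 was higher by 2.56 ± 0.52 on the log2 scale (SE, n = 3 a group; 5.91-fold, adjusted p = 0.00439) and Oas3 by 1.31 ± 0.19 (2.48-fold, adjusted p = 0.000645), both with arrays that did not overlap. Oas1b was higher by 1.76 ± 0.45 (3.38-fold, adjusted p = 0.0151) and Oas1c by 0.45 ± 0.14 (adjusted p = 0.0397), also with arrays that did not overlap. Oas1g was higher by 1.66 ± 0.52 (3.16-fold, adjusted p = 0.0387) and Oasl2 by 1.32 ± 0.39 (2.49-fold, adjusted p = 0.0321), with WT day 4 array 1 inside the KO range in both. The 6 of 7 members stand beside 8.34% of all genes. By limma, 0 of 7 were lower, also at an unadjusted p under 0.05, beside 12.4% of all genes, and the median difference was 1.32, beside 0.00.

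Oasl1, at 5.95 ± 0.51 in KO and 5.46 ± 1.07 in WT (SD), differed by 0.49 ± 0.40 (adjusted p = 0.428, 95% interval -0.37 to 1.35). It did not pass with all arrays, and without WT day 4 array 1 it differed by 1.09 and passed (adjusted p = 0.0051). The shared probe set differed by 0.54 ± 0.25 (adjusted p = 0.187), where 12.4% of probe sets passed. Without WT day 4 array 1, Oas1b differed by 2.48 (adjusted p = 5.93e-06), Oas1c by 0.46 (adjusted p = 0.0492), Oas1g by 2.47 (adjusted p = 5.76e-05), Oas2 by 3.41 (adjusted p = 1.71e-06), Oas3 by 1.61 (adjusted p = 1.81e-06) and Oasl2 by 1.92 (adjusted p = 8.11e-05), so all 7 members passed. That array was the highest of its group for every member but Oas1c, so leaving it out lowered the WT means. The larger differences without it are therefore no separate support. The calls of Oas2 and Oas3 held without any single array (adjusted p up to 0.0211 and 0.00385). The calls of Oas1b, Oas1c, Oas1g and Oasl2 were each lost when WT day 4 array 2 or array 3 was left out, where the difference of Oasl2 without array 3 was 0.80. Oas1b was also lost without KO day 4 array 2 (adjusted p up to 0.0557 over all 12 omissions) and Oasl2 without any 1 KO day 4 array (up to 0.114). Oas1g was also lost without any 1 KO day 4 array, KO day 0 array 1 or 3, or WT day 0 array 2 (up to 0.159). Oas1c was also lost without any 1 WT day 0 array, KO day 0 array 2 or KO day 4 array 1 (up to 0.148, with a difference of 0.29 without the latter). In a fit to the day 4 arrays alone, these 4 had adjusted p = 0.0895, 0.103, 0.128 and 0.134.

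**Figure D2:**
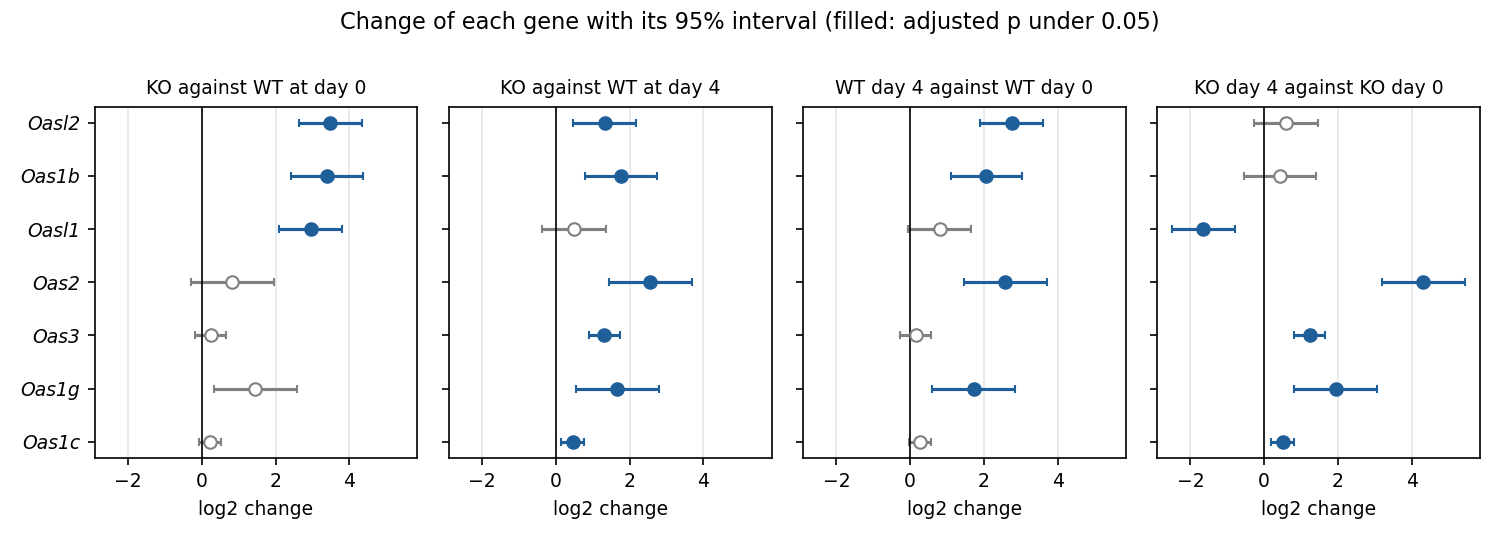
Log2 change (horizontal axis) of the 7 members with their own probe set in 4 comparisons; points are limma estimates, bars are 95% intervals and filled points have an adjusted p under 0.05. Oasl1 is the member whose estimate lies below 0 in KO from day 0 to day 4, and Oas2 has the largest rise there, 4.32.

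The comparisons share arrays, so their values are given side by side and the difference of the day 4 changes was tested on its own. The change of Oas3 was larger in KO than in WT by 1.07 ± 0.27 on the log2 scale (adjusted p = 0.0492). For Oasl1 the difference, KO minus WT, was -2.45 ± 0.56 (adjusted p = 0.0302), where KO fell by 1.65 and WT changed by 0.80. The 1 of 7 members past the threshold with a positive difference stands beside 2.15% of all genes, and the 1 with a negative difference beside 1.81%. The median difference was 0.21, beside -0.01. Oasl2 differed by -2.17 ± 0.56 (adjusted p = 0.0504), Oas1b by -1.64 ± 0.63 (adjusted p = 0.174) and Oas2 by 1.74 ± 0.73 (adjusted p = 0.216), none of which passed. The shared probe set differed by -0.11 ± 0.35 (adjusted p = 0.929), where 1.22% of probe sets passed.

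These calls were close to the threshold. Oas3 was lost without any 1 of the 11 arrays other than WT day 4 array 1 (adjusted p up to 0.114), and Oasl1 without any 1 of 8 arrays, those of day 0 and KO day 4 arrays 1 and 3 (adjusted p up to 0.0759). Without WT day 4 array 1, 4 members passed: Oas2 by 2.58 (adjusted p = 0.000707), Oas3 by 1.36 (adjusted p = 0.000345), Oasl1 by -1.86 (adjusted p = 0.00426) and Oasl2 by -1.56 (adjusted p = 0.0081). In that fit the difference, KO minus WT, was positive for Oas2 and Oas3 and negative for Oasl1 and Oasl2. When WT day 4 array 3 was left out, Oas1b (-2.20, adjusted p = 0.0426) and Oasl2 (-2.69, adjusted p = 0.00881) passed, and Oasl2 also passed when KO day 4 array 2 was (-2.37, adjusted p = 0.0459).

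**Figure D3:**
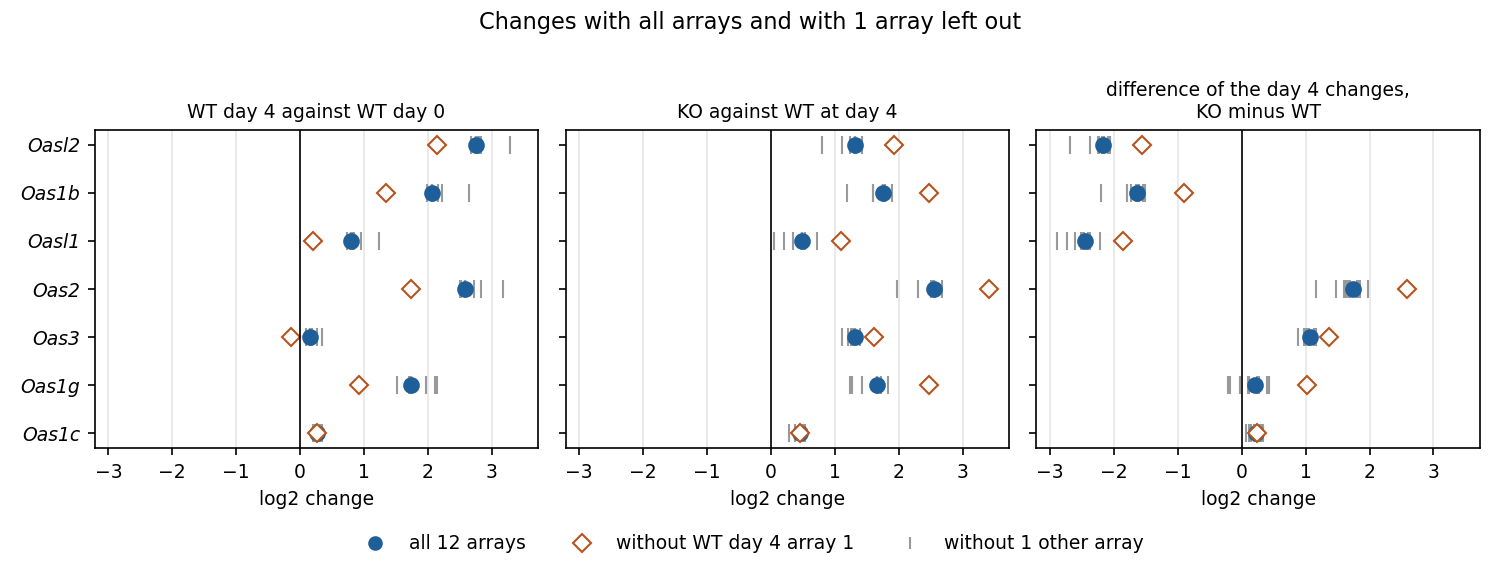
Log2 change (horizontal axis) of the 7 members in 3 comparisons, with all 12 arrays, without WT day 4 array 1, and without 1 other array in turn. Oas3 in WT from day 0 to day 4 moves from 0.16 to -0.14 without that array, and the estimates of Oas2 in KO against WT at day 4 run from 1.98 to 3.41.

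WT day 4 array 1 was not equally close to one group for every member. Its Oas1b level, 8.23, was close to the 8.07 to 8.12 of KO day 0, whereas its Oas2 level, 9.07, was above the 5.36 to 6.12 of KO day 0 and below the KO day 4 arrays. Its Oasl1 level, 6.65, lay below KO day 0 and above KO day 4. The mean of the members' levels, each centred over the 12 arrays, was 1.06 on that array, -0.36 and -0.85 on the other WT day 4 arrays, 0.18 to 0.31 in KO day 0 and 1.15 to 1.58 in KO day 4. The 3 arrays of WT day 4 thus spanned more than the KO groups did.

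Over the 12 arrays the members fell into pairs with like and unlike patterns, given as Pearson's r with no test because the points share 4 groups. Oas1b and Oasl2 had an r of 0.98, Oas2 and Oas1g 0.92, and Oas2 and Oas3 0.89. Oas1g and the probe set it shares with Oas1a had 0.95. The lowest values were those of Oasl1, with 0.15 to Oas2, 0.15 to Oas1c and 0.26 to Oas3, beside 0.79 to Oas1b.

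**Figure D4:**
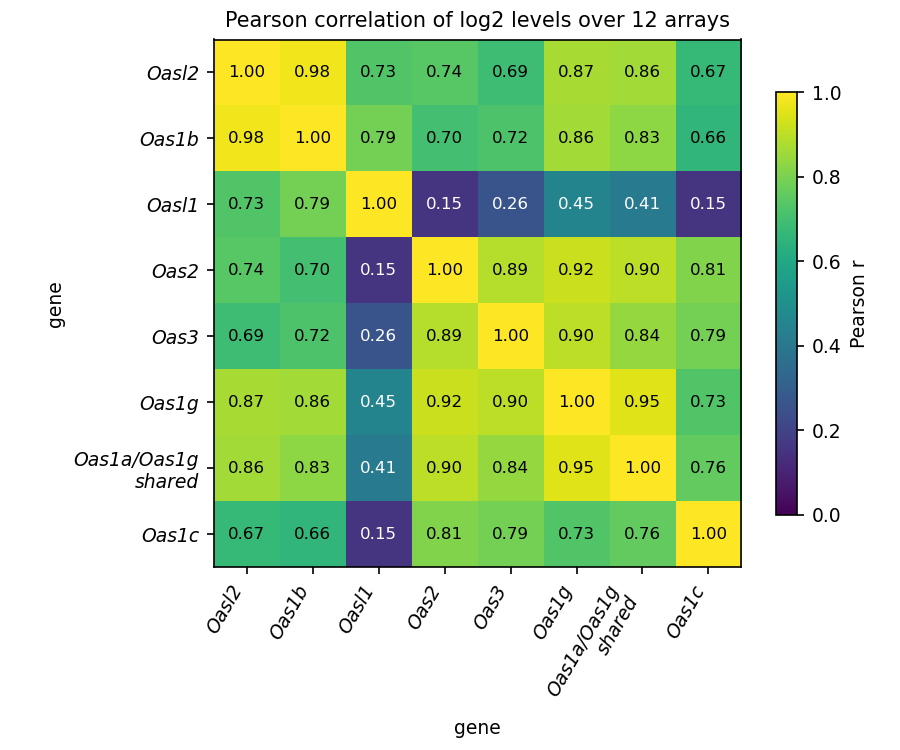
Pearson's r over the 12 arrays between the log2 levels of the 7 members and the probe set shared by Oas1a and Oas1g, by colour and number. Oas1b with Oasl2 reaches 0.98, and Oasl1 with Oas2 is at 0.15.

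The 10 genes outside the family whose levels followed the members' mean most closely over the 12 arrays were Lgals3bp, Bst2, Trim25, Angptl4, Mndal, Xdh, Zbp1, Cebpd, Rnf114 and Phf11d, with r from 0.99 to 0.97. Chosen after values were seen, the genes nearest to single members differed. Those nearest to Oasl1 were Cxcl10, a chemokine, Clstn2 and Irgm1, an interferon-induced GTPase, each with an r of 0.98. Those nearest to Oas2 were Lmbr1 (0.99), Apobec1 (0.98) and Tlr5 (0.98), and those nearest to Oas1b were Dhx58, Rtp4, Xaf1, Ifih1 and Ifi204 (0.99). Those nearest to Oas3 were Gm10499, Slc48a1 and H2-Ab1 (0.97), and the nearest to Oas1g was H2-T23 (0.98). H2-Ab1 and H2-T23 are genes of the major histocompatibility complex.

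Of 8 listed partners in the oligoadenylate pathway, 7 were measured. Akap7, whose product includes a phosphodiesterase domain that can degrade oligoadenylates, rose in WT by 0.65 ± 0.12 (adjusted p = 0.00164) and in KO by 0.86 ± 0.12 (adjusted p = 0.000154). Pde12, a phosphodiesterase that degrades oligoadenylates, fell in WT by 0.33 ± 0.08 (adjusted p = 0.00923). Abce1, a ribosome recycling factor, had levels of 10.23, 10.16 and 10.13 in KO day 0 and 9.66, 9.52 and 9.66 in KO day 4. It fell in KO by 0.56 ± 0.10 (adjusted p = 0.000699) and was lower in KO at day 4 than in WT by 0.51 ± 0.10 (limma difference -0.51, adjusted p = 0.00301). The partners passed 1 up and 1 down in each day 4 change and 1 down in KO against WT at day 4. Over all genes, 11.1% rose and 11.7% fell in WT, and 13.8% and 16.9% in KO. Of all genes, 12.4% were lower in KO at day 4, and these counts of 1 of 7 were near those shares. By limma, 0 of 7 passed at day 0 and in the difference of changes, with 1 of 7 lower in each at an unadjusted p under 0.05. The other Oas1 genes, Oas1d, Oas1e, Oas1f and Oas1h, were under the 25th percentile of genes in every group, and none passed in any comparison.

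The genes of interferon signalling code for interferons, their receptor and the factors downstream of it. Of 16 measured signalling genes of 18 listed, 2 rose and 1 fell in WT by day 4 (median 0.12), 6 were higher in KO at day 0 (median 0.36) and 4 at day 4 (median 0.02), and by limma 0 changed in KO by day 4, with 1 up and 1 down at an unadjusted p under 0.05. Over all genes, 11.1% rose and 11.7% fell in WT, and 13.8% and 16.9% in KO. Those higher in KO were 2.48% at day 0 and 8.34% at day 4. Irf7 rose in WT by 1.86 ± 0.50 (adjusted p = 0.0158) and was higher in KO at day 0 by 3.38 ± 0.50 (adjusted p = 0.00136). Usp18, a brake on the interferon receptor, rose in WT by 1.46 ± 0.49 (adjusted p = 0.0482), and the receptor kinase gene Jak1 fell by 0.28 ± 0.09 (adjusted p = 0.0316). Irf9 was higher in KO at day 0 by 1.54 ± 0.21 (adjusted p = 0.000682). Ifnb1, the gene of interferon beta, lay between 2.61 and 2.92 on all arrays. Ifna4, an interferon alpha gene named after its values were seen, was higher in KO at day 0 by 0.94 ± 0.13 (adjusted p = 0.000862) and at day 4 by 0.78 ± 0.13 (adjusted p = 0.00138). The other measured interferon genes did not share this difference. Ifna1 lay between 6.50 and 6.97, Ifnk between 3.04 and 3.50 and Ifne between 3.27 and 3.72, with WT and KO overlapping at both days. The 3 signalling genes past the threshold in WT became 1 without WT day 0 array 2, 0 without WT day 0 array 3 and 5 without WT day 4 array 3. The 4 in KO against WT at day 4 became 1 without WT day 4 array 2 or 3 or KO day 4 array 2, and 1 in a fit to the day 4 arrays alone. The count of 0 in KO by day 4 became 3 in a fit to the KO arrays alone. It was 2 with array weights and 2 without WT day 4 array 1 or 3.

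Of 13 genes of nucleic acid sensing, 5 rose in WT by day 4 (median 0.59), 2 in KO (median -0.02), and 8 were higher in KO at day 0 (median 1.10) and 4 at day 4, where 1 was lower (median 0.37). Over all genes, 11.1% rose in WT and 13.8% in KO. In KO against WT, 2.48% were higher at day 0, and 8.34% were higher and 12.4% lower at day 4. Mavs, the adaptor of the RNA sensors on mitochondria, rose in WT by 0.70 ± 0.09 (adjusted p = 0.000102). Zbp1 rose by 2.34 ± 0.44 (adjusted p = 0.0017), Trim25 by 0.86 ± 0.17 (adjusted p = 0.00224) and the RNA sensor Ifih1 by 1.36 ± 0.30 (adjusted p = 0.00536). Counted in either direction, the 2 genes past the threshold in KO became 7 and the 5 in KO against WT at day 4 became 10 without WT day 4 array 1. Without that array the medians were 0.22 in WT and 0.76 in KO against WT at day 4. The latter count was 3 without WT day 4 array 2 and 2 without array 3, and 1 in a fit to the day 4 arrays alone.

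Of 14 other interferon-induced effectors measured of 15 listed, 11 rose in WT by day 4 (median 1.41) and 12 were higher in KO at day 0 (median 2.28). Over all genes these shares were 11.1% and 2.48%. The 11 became 6, 5 and 5 past the threshold without WT day 0 arrays 1, 2 and 3 in turn, and 6 with a trended robust prior or in a fit to the WT arrays alone. Without WT day 4 array 1 the WT median was 0.79. Ifit1, which binds foreign RNA ends, rose in WT by 2.84 ± 0.49 (adjusted p = 0.000884), Cmpk2 by 2.36 ± 0.39 (adjusted p = 0.000747), Rtp4 by 2.31 ± 0.39 (adjusted p = 0.000845) and Xaf1 by 1.60 ± 0.30 (adjusted p = 0.0016). In KO by day 4, 0 rose, also at an unadjusted p under 0.05 by limma, and 2 fell, Cmpk2 by 1.33 (adjusted p = 0.0208) and Ifit2 by 0.57 (adjusted p = 0.0162), with a median of -0.41. Over all genes, 13.8% rose and 16.9% fell there. Oas2 and Oas3 rose in the same comparison. At day 4, 5 were higher in KO than in WT (median 0.66), beside 8.34% of all genes. This count was 12 without WT day 4 array 1 (median 1.15), 1 without WT day 4 array 2 or 3 or KO day 4 array 2, and by limma 0 in a fit to the day 4 arrays alone. In the difference of changes 5 passed, all with a negative difference, KO minus WT, beside 1.81% of all genes. That count was 9 without WT day 4 array 1 or 3, 8 without KO day 4 array 2 and 3 without any 1 day 0 array or KO day 4 array 1 or 3. The 2 past the threshold in KO by day 4 became 7 without WT day 4 array 1 and 0 without KO day 0 array 1 or KO day 4 array 1.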

How the data were processed

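Total RNA of mouse embryonic fibroblasts was labelled from whole transcripts and hybridised to 12 Affymetrix arrays, 3 in each of 4 groups, per the labels. What the authors deposited is a table of log2 levels per probe set, from 1.33 to 13.35. It was made with Affymetrix Expression Console, per the submitters' processing notes. The normalization and genome build were not given in the sources used here. No further normalization was applied. Of 41345 probe sets, 23521 had 1 gene symbol in the platform annotation, 1814 several and 16010 none. A gene was read through its single-symbol probe set with the highest 12-array mean, which gave 22180 genes.

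A linear model of 4 group means without covariates was fitted to all 12 arrays with limma 3.58.1 in R 4.3.3 (8 residual and 4.56 prior degrees of freedom). Tests were two-sided moderated tests, Benjamini-Hochberg adjusted over all genes, with a threshold of 0.05. The shared probe set was tested in a fit over all probe sets, added after the data were seen. The fit was tested on simulated data. Arrays have no read depth, so precision is limited by their number. The labels name no batch. The genes named were the members, measured partners, up to 4 genes of each list with the smallest p in WT day 4 against WT day 0, and the 10 genes most like the members' mean. Irf9, Ifnb1, Ifna1, Ifna4, Ifnk, Ifne, Ifit2, marker genes and the genes nearest to single members were added after values were seen. The members and lists were chosen with earlier results of these data known. Promoter windows came from RefSeq and were searched with Biopython 1.88. Alternatives were a filter at the 25th percentile, quantile normalization, centring on array medians, averaged probe sets, a trended robust prior, fits to the compared groups alone, weights per array, a replicate block, a 2-fold minimum and each array left out.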

Additional observations from a re-analysis of the deposited data

Results flagged for a closer look

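The day 4 change differed between KO and WT for 2 members, by the test of the difference itself in limma. For Oas3 the difference was 1.07 on the log2 scale, KO minus WT (adjusted p = 0.0492), and for Oasl1 it was -2.45 (adjusted p = 0.0302). With 3 arrays a group, single arrays that stand apart from their group were not tested for.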

How the results depend on the processing

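Counts of members past the threshold moved in 3 comparisons. For KO against WT at day 0, 3 became 5 in the fit to the compared groups alone, and leaving out 1 array gave 3 to 5. For KO against WT at day 4, 6 became 3 with a trended robust prior, 2 with the compared groups alone and 3 over all probe sets, and leaving out 1 array gave 2 to 7. For the difference of changes, 2 became 1 with the replicate block, 1 with quantile normalization, 1 with the trended robust prior, 4 with array weights and 0 over all probe sets, and leaving out 1 array gave 0 to 4. The cause was not tested. Arrays with the same replicate number in different groups had correlations of their deviations from group means of -0.06 to 0.18. Arrays with unlike numbers were not compared, so this cannot decide whether the numbers pair the arrays. The counts of 4 members in WT and 5 in KO by day 4 stayed within 1.5 times under the alternatives run, with Oas1g lost in WT under 3 alternatives beside omitted arrays and Oas1b and Oasl2 gained in KO with the compared groups alone. Leaving out 1 array, the WT change of Oas3 ran from -0.14 to 0.35 and the difference of Oas1g from -0.21 to 1.02. Over all genes, a 2-fold minimum left 779 of 5072, 834 of 6828, 273 of 1242, 330 of 4596 and 179 of 877 in the order WT change, KO change, day 0, day 4 and difference. At day 0, array weights gave 2562, the compared groups alone 2453 and leaving out 1 array 769 to 1936. At day 4 the compared groups alone gave 1923, and leaving out 1 array 2946 to 5929. For the difference, array weights gave 1852, all probe sets 503 and leaving out 1 array 395 to 2140.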
